A study of Mus musculus with 9 samples.

Results

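The comparison set tumor cells taken from mice given YKL-05-099 beside the same kind of tumor cell grown in culture, over the genes expressed in either. A gene was kept when it reached 1 FPKM (sequenced fragments corrected for transcript length and library depth) in the culture library or in at least 3 of the 4 YKL-05-099 libraries. These were 12176 of the 48230 genes of the table, 10854 of them kept by both criteria, 567 through the culture library alone and 755 through the treated libraries alone. Protein-coding genes made up 11341 of them.

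BeCon cells are mouse tumor cells used in a study of ovarian cancer. Sequencing of poly(A) RNA with a kit that marks strand covered 9 BeCon samples. For 8 of them, B6 mice that carried BeCon tumors received either YKL-05-099, an inhibitor of the salt-inducible kinases (SIKs), or its vehicle. Ascites was collected, and viable cells that lacked the leukocyte antigen CD45 and carried MHC class I (CD45- MHCI+) were sorted, giving 4 YKL-05-099 and 4 vehicle libraries. The ninth library came from BeCon cells cultured in vitro and has no replicate, so no difference from culture has a replicate check and none is given a p-value. Dose, length of treatment and culture conditions are not given in the labels, nor is it stated that the cultured cells were sorted. What the mouse, the drug and the sort each contribute to a difference between the treated and the cultured cells cannot be told apart from these 2 groups alone. For that reason the vehicle libraries are given beside the treated ones. The labels do not state how many animals went into a mouse library, so the p-values of the comparison between treated and vehicle cells measure only the spread between libraries.

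SIKs are kinases of the AMPK family, switched on by the kinase LKB1. By phosphorylation they hold CRTC proteins, which activate genes together with CREB, outside the nucleus, and they do the same to class IIa histone deacetylases. Signaling by cAMP relieves this restraint. Ascites is the fluid in which peritoneal tumor cells float beside immune and mesothelial cells, their cytokines and growth factors, whereas medium in a dish holds none of these host cells.

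The libraries held roughly 24000000 to 35000000 fragments each, estimated from the smallest values of long genes that have 1 transcript. Markers of other cell types differed between groups. The summed FPKM of 19 macrophage and monocyte markers was 12.3 in culture, 31.4, 98.1, 110.1 and 31.4 in treated libraries 1 to 4, and 250.3 to 571 in vehicle libraries. The summed erythroid markers (9 genes) were at 2.92, at 11.1, 60.5, 95.2 and 4.04, and at 246 to 1489 in the same order. Treated libraries 2 and 3 thus held more macrophage and erythroid transcript than treated libraries 1 and 4. The 15 pan-leukocyte markers summed to 14.7 in culture, 19.1 to 26.5 in treated and 34.7 to 68.1 in vehicle libraries, and Ptprc, which encodes CD45, did not exceed 0.276 FPKM in any treated library. At 0 in every treated library were 5 of 11 neutrophil markers, 4 of 14 T and NK cell markers and 2 of 8 dendritic cell markers. Of the 16 ovarian and Mullerian epithelial markers 11 reached 1 FPKM in at least 3 treated libraries, Wt1 at 501 to 529 FPKM against 373 in culture, while Pax8, Sox17 and Foxl2 were at 0 in all 4. In bulk RNA, fewer cells of a type and less RNA per cell cannot be told apart.

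Most genes stood close to their culture level, and a small share stood far from it. Differences are on log2(FPKM + 1), a scale that shrinks differences of weakly expressed genes. A gene was called near when the mean of the 4 treated libraries lay within 0.5 log2 unit of culture, and far when it lay at least 2 log2 units away with the culture value outside the range of the 4 libraries. Near genes numbered 6611 (54.3%), genes far above culture 395 (3.24%) and genes far below it 221 (1.82%), while 4949 lay between. The median difference over all 12176 genes was 0.02, so the values as deposited had no general offset. At the limits of the rule, Coq8a was just inside at 2.002 and Cyr61 just outside, with a treated mean of 819 FPKM against 199 in culture. On the lower side Sh2d5 was just inside at -2.003. Of the far genes 161 above and 78 below culture were kept through one side alone, which by construction makes them differ.

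Treated and vehicle libraries lay at overlapping distances from culture. The mean absolute difference from culture over the 12176 genes was 0.670, 0.680, 0.677 and 0.657 log2 unit in treated libraries 1 to 4, or 0.671 ± 0.0102 (SD, n = 4), and 0.659 to 0.674 in the vehicle libraries, 0.667 ± 0.00735 (SD, n = 4). Any 2 treated libraries lay only 0.115 to 0.145 apart by the same measure, and a treated and a vehicle library 0.235 to 0.300. Genes could be kept through treated but not through vehicle libraries. With genes kept through vehicle libraries added, the mean distances were 0.668 for treated and 0.677 for vehicle libraries, in reverse order. Both mouse groups share the culture library, so their distances are given side by side only.

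**Figure D1:**
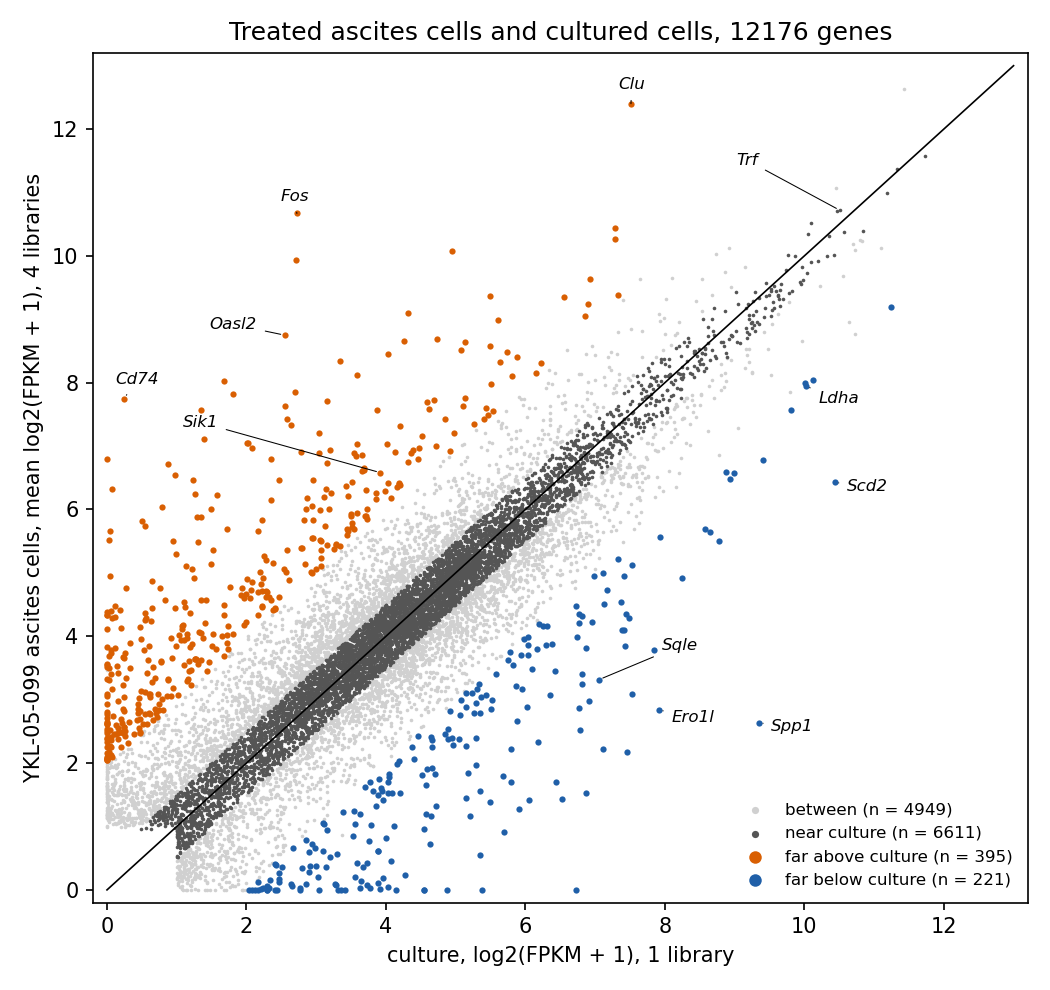
Mean log2(FPKM + 1) of the 4 YKL-05-099 libraries (vertical axis) against log2(FPKM + 1) of the single culture library (horizontal axis) for the 12176 genes kept; 395 genes lie far above culture (orange), 221 far below it (blue) and 6611 near it (dark grey). The cloud follows the diagonal line of equal values, and the labelled genes are described in the text.

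Targets of CREB, which lies downstream of the kinases that the drug inhibits, stood high above culture. Of 20 kept CREB and CRTC target genes 11 were far above culture, 2 far below (Pck2 and Bdnf, named after their values were seen) and 1 near, with a median difference of 2.64 against 0.02 over all genes. Of the 20, 5 were kept through the treated libraries alone, 3 of the far ones among them. Fos, a subunit of the transcription factor AP-1, was at 1860.03, 2164, 1707 and 1021 FPKM in treated libraries 1 to 4 and at 5.603 in culture. Rgs2, a regulator of G protein signaling, stood at 47.9, 50.1, 62.7 and 50.4 FPKM against 0.464. The nuclear receptor gene Nr4a1 stood at 252, 271, 278 and 146 FPKM against 5.46. For these 3 genes every treated library lay far above culture, and treated library 4 was the lowest for Fos and Nr4a1 but not for Rgs2.

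Only some of these targets also stood apart from vehicle. In the test of treated against vehicle libraries, limma called 3304 of 11788 genes higher (28%) and 1785 lower (15.1%) at an adjusted p under 0.05, with 2497 and 2466 after median-of-ratios scaling and 363 and 228 when the mean level of the pan-leukocyte markers entered the model as a covariate. Of the 18 CREB targets tested, 11 were higher and 1 lower in treated cells. Counts of list members called against vehicle, here and below, stand against the 28% higher and 15.1% lower over all genes tested. Rgs2 was at 18.6 ± 5.71 FPKM in vehicle libraries (limma adjusted p = 0.000377) and Nr4a1 at 127 ± 19.3 FPKM (limma adjusted p = 0.00576), where treated library 4 fell inside the vehicle range. Fos was at 1559 to 2149.6 FPKM in vehicle libraries, a range that overlaps the treated one (limma adjusted p = 0.728). The mean absolute difference of the list from culture was 2.86 to 3.14 in treated and 2.46 to 2.61 in vehicle libraries, with no overlap. The filter admitted genes through treated but not through vehicle libraries, and 5 of the 20 kept targets entered through treated libraries alone. By construction this adds to the treated distance. Absence of overlap was common among the lists and not particular to this one. Integrins (1.04 to 1.12 treated, 0.872 to 0.979 vehicle) and collagens (1.40 to 1.43 treated, 1.49 to 1.60 vehicle) did not overlap either. With the pan-leukocyte markers in the model, 7 of the 18 targets were higher and 1 lower, Rgs2 among those higher (limma adjusted p = 0.00693), and Nr4a1 was not called (limma adjusted p = 0.0888). The summed pan-leukocyte markers did not overlap between treated (19.1 to 26.5 FPKM) and vehicle libraries (34.7 to 68.1 FPKM). The covariate thus runs along with treatment and widens the errors. A call lost in that model cannot tell leukocyte content from treatment, here and below.

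The kinases themselves ranged from near to far. Sik1, whose own gene is a CREB target, stood at 96.8, 102, 99.5 and 82.1 FPKM in treated libraries and 14.1 in culture, a difference of 2.66 ± 0.14 (SD, n = 4). Vehicle libraries held 39.2 ± 7.07 FPKM, between culture and every treated library (log2 fold change 1.27, SE 0.11, limma adjusted p = 4.66e-05). Sik2 was at 10.8 to 13.6 FPKM against 5.43, and Sik3 at 27.9 to 28.8 FPKM against 22.7, near culture. Stk11, which encodes LKB1, was near too, at 60.1 to 62.02 against 44.3 FPKM, as was Cab39, a subunit of the LKB1 complex. Of 13 kept genes of the SIK and LKB1 list 7 were near, close to the share of 54.3% over all genes kept. Only 1, Sik1, was far above culture, against 3.24% over all genes kept.

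Immediate early genes, which cells switch on within minutes of a stimulus, were far above culture in 11 of 20 cases, with a median difference of 2.17. Egr1, a zinc finger factor, stood at 1182, 1205, 1227 and 769.9 FPKM against 29.8 in culture, and Fosb, a partner of Jun proteins, at 214, 325, 193 and 115 against 4.88. Zfp36, which encodes a protein that speeds decay of cytokine mRNA, was at 461, 536, 382 and 283 FPKM against 18.1. Treated library 4 was the lowest of the 4 for all 3 genes and still lay far above culture. Fosl1, another AP-1 subunit gene, named after its value was seen, was the only member far below culture, at 0.129 to 0.171 FPKM against 10.7. Fosl1 was kept through the culture library alone, and 1 of the 11 members far above culture through the treated libraries alone. Both therefore differ from culture by construction. Maff, a small bZIP factor gene, was the only near member, at 42.7, 44.03, 32.02 and 12.7 FPKM against 35.02, with library 4 apart from the other 3. Of 19 members tested against vehicle 2 were higher and 5 lower (1 and 0 with the pan-leukocyte markers in the model), and the median difference of the vehicle libraries from culture was 2.72, so the group stood above culture in both mouse groups.

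The promoter windows of Fos and Dusp1 are shown because both genes were far above culture and hold letters that CREB is known to bind. Dusp1, which encodes a phosphatase of MAP kinases, stood at 591, 719.95, 579.8 and 367 FPKM in treated libraries, 18.9 in culture and 543 to 701 in vehicle libraries, where treated and vehicle ranges overlap. Windows run from 250 bases before to 50 bases after the start of transcription, 5′ to 3′ on the strand of the gene, from RefSeq on GRCm38.p6. Capitals mark the short CRE (TGACG) or the full CRE (TGACGTCA), searched on both strands, where a full CRE contains short ones.
Fos, chr12:85473640-85473939, plus strand: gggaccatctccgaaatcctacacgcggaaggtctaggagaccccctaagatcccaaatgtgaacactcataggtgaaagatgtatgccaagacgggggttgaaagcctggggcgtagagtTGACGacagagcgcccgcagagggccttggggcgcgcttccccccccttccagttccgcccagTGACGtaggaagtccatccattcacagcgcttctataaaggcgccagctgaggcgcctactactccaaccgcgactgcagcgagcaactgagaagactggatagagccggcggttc
Dusp1, chr17:26508423-26508722, minus strand: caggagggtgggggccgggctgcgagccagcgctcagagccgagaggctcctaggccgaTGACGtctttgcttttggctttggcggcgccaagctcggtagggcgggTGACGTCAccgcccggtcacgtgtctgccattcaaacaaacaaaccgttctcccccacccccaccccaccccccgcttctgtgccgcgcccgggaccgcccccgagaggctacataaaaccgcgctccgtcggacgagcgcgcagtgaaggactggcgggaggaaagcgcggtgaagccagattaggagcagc
Of 15 CREB target genes with a window, 12 held a short CRE and 2 (Areg and Dusp1) the full CRE in at least 1 window. Counted in the same way, 23.05% of all 27025 genes with a window held the short and 2.03% the full CRE, and 36.3% and 3.83% of the kept genes with one. A match is a description of letters and shows no binding.

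**Figure D2:**
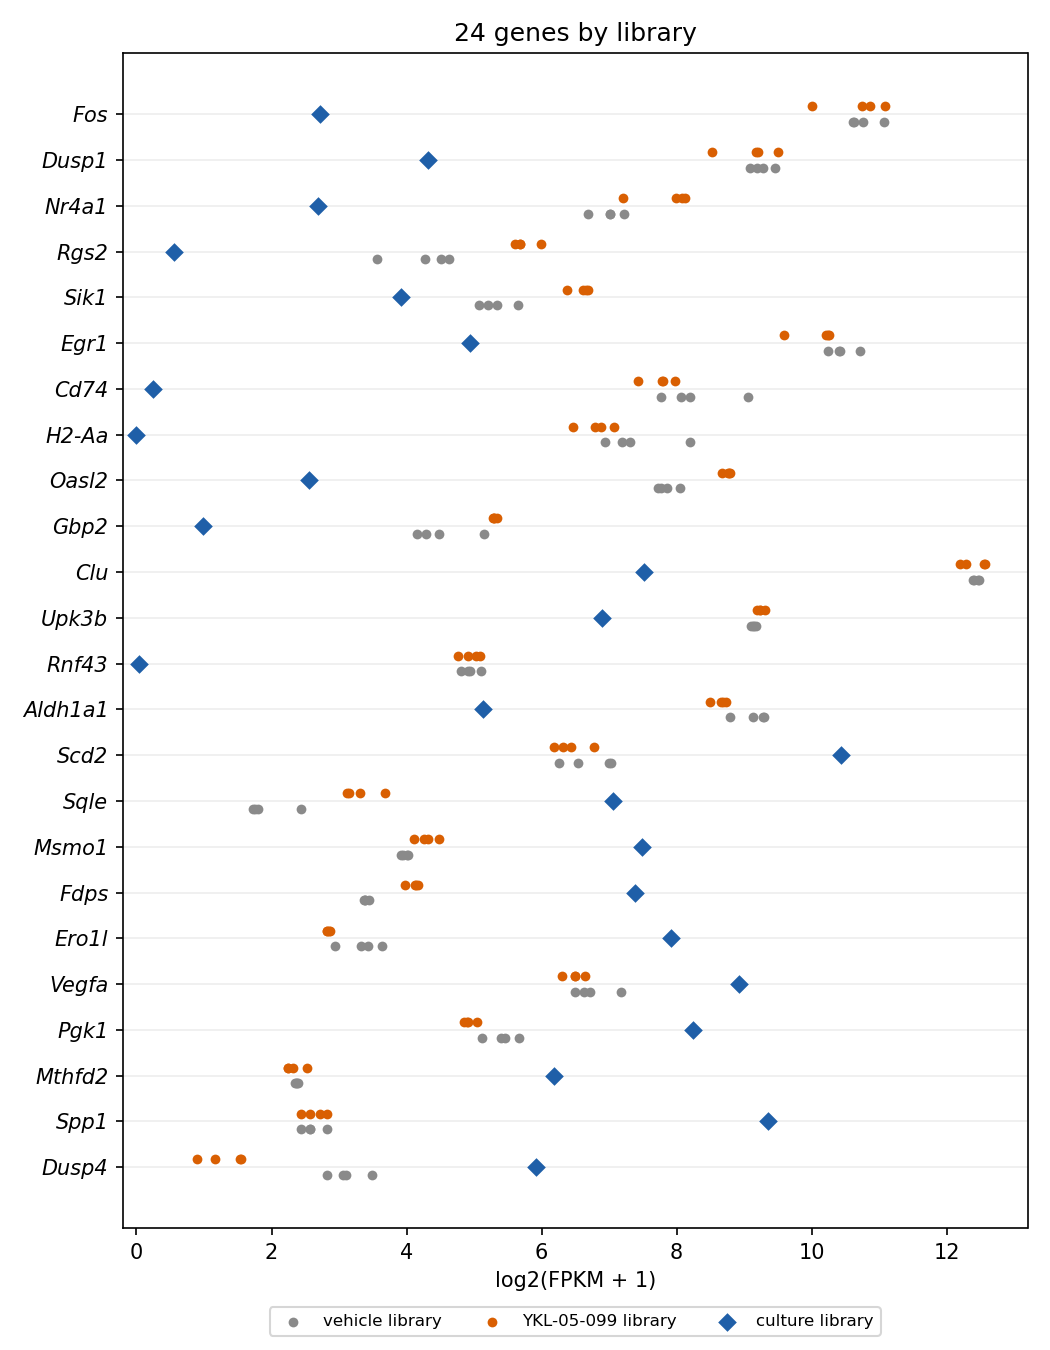
FPKM of 24 genes on a log2(FPKM + 1) axis in each library: 4 YKL-05-099 libraries (orange), 4 vehicle libraries (grey) and the culture library (blue diamond). The upper genes lie far above culture in every treated library, the lower genes far below it, and the vehicle libraries lie on the same side of culture as the treated ones.

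Genes of antigen presentation by MHC class II were far above culture in 6 of 9 cases, with a median difference of 2.86. Of the 9, however, 6 were kept through the treated libraries alone, 5 of them far, and such members lie above culture by construction. Cd74, the invariant chain of class II molecules, stood at 220.1, 251.4, 222 and 170.4 FPKM in treated libraries and 0.184 in culture. H2-Aa was at 117, 134, 109.8 and 87.3 FPKM and listed at 0 in culture, and H2-Eb1 at 76.8, 98.2, 82.5 and 62.9 FPKM against 0.0483. H2-Ab1 was at 37.1 to 61.5 FPKM against 0.0265. Treated library 2 was the highest and library 4 the lowest for all 4 genes, and no treated library came near the culture value. Vehicle libraries overlapped the treated ones (Cd74 at 216 to 532 FPKM, limma adjusted p = 0.101). Ciita, the master regulator of class II genes, named after its value was seen, was at 1.102 to 1.64 FPKM in treated libraries and listed at 0 in culture. Class II genes are textbook markers of antigen-presenting leukocytes. In the same treated libraries the macrophage marker Lyz2, a lysozyme gene, was at 5.27, 30.9, 32.4 and 3.11 FPKM, and Ptprc at 0.0421, 0.173, 0.276 and 0.0308 FPKM. The part of residual leukocytes in the class II values was not tested. Ifi30, a lysosomal thiol reductase gene, was the only near member of the list, at 47.5 to 51.4 FPKM against 46.04. The H2 genes are similar in sequence and can share reads.

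Interferon-stimulated genes were above culture almost throughout. Of 34 kept type I interferon response genes 7 were far above, none far below and 8 near, the median difference was 1.12, and 30 exceeded culture in all 4 treated libraries. Of the 34, 6 were kept through the treated libraries alone, 2 of the far ones among them. Oasl2, an antiviral oligoadenylate synthetase-like gene, stood at 407, 443, 438 and 431 FPKM against 4.85 in culture, and Oas2, its enzymatic relative, at 7.67, 10.02, 11.1 and 10.1 against 0.0374. Rtp4, an interferon-induced chaperone of receptors, was at 15.8 to 18.9 FPKM against 1.12. The treated libraries lay close together for these genes, above both culture and every vehicle library (Oasl2 at 211 to 264, Oas2 at 0.821 to 1.53 and Rtp4 at 5.48 to 6.23 FPKM). Of 33 members tested against vehicle 30 were higher and 1 lower (16 and 0 with the pan-leukocyte markers in the model). The list lay 1.36 to 1.46 from culture in treated and 0.851 to 0.994 in vehicle libraries. Genes could be kept through treated but not through vehicle libraries, which by construction adds to the treated distance.

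Not all interferon genes took that position. Bst2, or tetherin, which holds virus particles on the cell surface, was near culture in treated cells (16.8 to 18.9996 against 21.3 FPKM) and low in vehicle libraries (4.85 to 6.55 FPKM, limma adjusted p = 5.22e-06). Irf7, a factor that amplifies interferon production, was at 14.5 to 16.4 FPKM in treated libraries, while culture (3.52) and vehicle (4.34 to 4.79) lay close together. Samhd1, a nucleotide hydrolase gene, was near culture in both mouse groups.

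Genes of the interferon gamma response were far above culture in 8 of 19 cases, with a median difference of 1.55, but 11 of the 19, 6 of the far ones among them, were kept through the treated libraries alone. Gbp2, a guanylate-binding protein gene, stood at 37.8, 38.1, 39.6 and 38.3 FPKM against 0.980 in culture, Irgm2, an immunity-related GTPase gene, at 20.7, 21.3, 20.5 and 20.9 against 0.965, and Gbp3 at 13.5, 12.2, 13.6 and 12.1 against 0.442. The 4 treated libraries differed little from each other. Vehicle libraries lay between culture and treated cells for all 3 (Irgm2 at 8.83 to 12.4 FPKM, limma adjusted p = 4.09e-05). With the pan-leukocyte markers in the model Irgm2 was called (limma adjusted p = 0.0317), and Gbp2 and Gbp3 were not (limma adjusted p = 0.399 and 0.0665). Of 18 members tested against vehicle 14 were higher and 1 lower (3 and 0 with those markers in the model). Icam1, an adhesion molecule gene that NF-kappaB also drives, was at 15.03 to 19.99 FPKM against 1.66 and overlapped vehicle. The Gbp genes resemble each other and may share reads.

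The windows of Irgm2 and Gbp2 are shown because both genes were far above culture and hold the core of the interferon-stimulated element (GAAANNGAA), which STAT and IRF factors are known to bind, and Irgm2 also holds a gamma-activated site (TTCNNNGAA). Both motifs were searched on both strands and are in capitals.
Irgm2, chr11:58214727-58215026, plus strand: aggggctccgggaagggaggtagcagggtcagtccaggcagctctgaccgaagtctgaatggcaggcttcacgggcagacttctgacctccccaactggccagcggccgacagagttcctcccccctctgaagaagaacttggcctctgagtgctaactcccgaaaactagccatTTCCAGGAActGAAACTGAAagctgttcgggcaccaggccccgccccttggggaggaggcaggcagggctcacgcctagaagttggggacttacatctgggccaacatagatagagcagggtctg
Gbp2, chr3:142620413-142620712, plus strand: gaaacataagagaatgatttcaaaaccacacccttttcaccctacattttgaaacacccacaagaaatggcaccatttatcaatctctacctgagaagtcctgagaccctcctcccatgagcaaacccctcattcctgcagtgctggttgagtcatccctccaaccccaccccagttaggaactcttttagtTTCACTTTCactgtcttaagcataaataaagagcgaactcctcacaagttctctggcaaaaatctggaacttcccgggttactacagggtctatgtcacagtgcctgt
Among interferon gamma genes with a window, 10 of 13 held the element core and 6 of 13 the gamma-activated site, in at least 1 window, against 9.76% and 9.55% of all genes with a window and 8.55% and 8.24% of kept genes with one. In the type I list 13 of 25 genes with a window held the core, and Oasl2 was not among them.

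MHC class I genes followed with a smaller shift. Of 19 kept class I presentation genes 2 were far above culture and 4 near, and the median difference was 1.06. The far members were the immunoproteasome subunit genes Psmb8, at 61.6, 56.9, 60.7 and 56.5 FPKM against 12.2, and Psmb9, at 16.3, 11.8, 12.1 and 14.1 against 0.976. Psmb9 was the 1 member kept through the treated libraries alone. The chaperone genes Calr and Pdia3, which help class I molecules to fold, were near. Of 19 members tested against vehicle 17 were higher and 0 lower (1 and 0 with the pan-leukocyte markers in the model). MHC class I protein was part of the gate with which the mouse cells were sorted, and its part in these levels was not tested.

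Complement and acute phase genes added to the distance. Of 18 kept genes of complement and pattern recognition 4 were far above culture, with a median difference of 1.25. Of the 18, 3 were kept through the treated libraries alone, 1 of the far ones among them. Clu, which encodes the secreted chaperone clusterin, reached 4709, 6066, 5979.9 and 4999 FPKM against 182 in culture. Serping1, the C1 inhibitor, was at 317 to 369 FPKM against 15.3, and C4b, a complement component, at 17.1 to 22.9 against 0.00499. The sensor genes Tlr4, Ly96 and Tmem173 (STING) were near culture. Of 6 kept acute phase genes 4 were far above culture, among them Lbp, a binding protein for lipopolysaccharide, at 52.2 to 62.5 FPKM against 1.44, and Hp, or haptoglobin, at 29.2 to 37.1 against 1.19. Of the 6, 3 were kept through the treated libraries alone, 2 of the far ones among them, and such members lie above culture by construction. Against vehicle, 1 of the 6 acute phase genes was higher in treated cells, 4 were lower and Lbp was not called (limma adjusted p = 0.737), with 0 higher and 1 lower when the pan-leukocyte markers entered the model. The acute phase list lay 2.27 to 2.73 from culture in treated and 2.81 to 3.28 in vehicle libraries, with no overlap, which was common among the lists. Of 20 complement and pattern recognition genes tested 5 were higher and 4 lower than in vehicle (1 and 0 with the pan-leukocyte markers in the model). These counts are close to the 28% higher and 15.1% lower over all genes tested. Clu was not called (limma adjusted p = 0.821).

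Inflammatory signals pointed in different directions. Of 18 kept NF-kappaB and cytokine genes 4 were far above and 1 far below culture. The alarmin gene Il33 was at 21.2, 24.9, 30.8 and 28.3 FPKM in treated libraries, 2.82 in culture and 5.097 to 12.3 in vehicle libraries, where every vehicle library lay between culture and treated (limma adjusted p = 0.000253, or 0.104 with the pan-leukocyte markers in the model). Nfkbia and Nfkbiz, which encode inhibitory and regulatory partners of NF-kappaB, were at 179 to 248 against 34.02 and at 35.3 to 69.3 against 3.67 FPKM, while the subunit genes Nfkb1 and Nfkb2 were near. Among 9 kept chemokines the neutrophil attractant gene Cxcl1 was far above, at 189, 225, 147 and 309.8 FPKM against 7.95. Ccl5 (0.405 to 0.614 against 8.797) and Cxcl12 (0.196 to 0.400 against 6.502 FPKM) were far below. Of the 9, 3 were kept through the culture library alone, Ccl5 and Cxcl12 among them. Such members lie below culture by construction and lower the median of the list. The median difference of the chemokine list from culture was -0.46 in treated and 0.79 in vehicle libraries. Of 9 chemokines tested against vehicle 0 were higher and 8 lower (0 and 3 with the pan-leukocyte markers in the model), where 15.1% of all genes tested were lower.

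Genes of the peritoneal lining mostly stood above culture. Of 10 mesothelial markers 3 were far above culture, 2 near and none far below, with a median difference of 1.48. Of the 10, 2 were kept through the treated libraries alone, 1 of the far ones among them. Upk3b, a uroplakin gene, stood at 601, 599, 580.3 and 633 FPKM against 118, Nkain4 at 59.2 to 67.2 against 1.805, and Muc16, which encodes the ovarian cancer antigen CA125, at 8.77 to 11.1 against 0.112. Wt1 and Msln (mesothelin) were near in the 4-library mean, so lineage genes were expressed in both states. Vehicle libraries held 548 to 575 FPKM of Upk3b, just under the treated range. The epithelial genes Krt7, a keratin, and Cldn15, a claudin of tight junctions, were far above culture, at 19.4 to 27.1 against 0.0804 and 124 to 135 against 3.07 FPKM, whereas Cdh3, or P-cadherin, was far below at 15.1 to 19.03 against 78.1. Krt7 was kept through the treated libraries alone, which by construction places it above culture. Whether mesothelial cells of the host, which lack CD45, passed the sort was not tested.

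WNT and retinoid genes were likewise above culture. In the WNT feedback and target list 6 of 17 were far above and none far below, and 7 of the 17, 4 of the far ones among them, were kept through the treated libraries alone. Rnf43, a ubiquitin ligase that removes WNT receptors, was at 31.6, 33.1, 29.1 and 26.1 FPKM against 0.0300, and Axin2, a feedback inhibitor of beta-catenin, at 18.5, 17.2, 17.6 and 14.4 against 1.11. Wnt4, a ligand of ovarian development, was at 81.7 to 86.3 against 15.4 FPKM. The receptors Fzd1 and Fzd2 were near. Of 18 kept retinoid, steroid and nuclear receptor genes 4 were far above, among them the retinaldehyde dehydrogenases Aldh1a1 (423, 412, 359.98 and 402 against 34.1 FPKM) and Aldh1a2 (11.8 to 13.98 against 0.0413) and the retinol transporter Stra6. Of these 18, 3 were kept through the treated libraries alone, 2 of the far ones among them. The receptors Rara, Nr3c1 and Nr2f2 were near. Axin2 was lower in treated than in vehicle cells (limma adjusted p = 0.0109, or 0.161 with the pan-leukocyte markers in the model) and Rnf43 did not differ beyond the spread (limma adjusted p = 0.944).

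Sterol synthesis genes lay below culture throughout. All 22 kept genes of cholesterol synthesis and its regulation were below culture in all 4 treated libraries, 12 of them far below and 1 near, and the median difference was -2.26. Sqle, the squalene epoxidase, stood at 11.9, 7.71, 7.902 and 8.88 FPKM against 132 in culture. Fdps, which makes farnesyl pyrophosphate, was at 16.5, 16.9, 14.7 and 16.6 against 167, and Msmo1, a sterol methyl oxidase, at 16.2 to 21.4 against 178. Treated libraries were nonetheless nearer to culture than vehicle libraries: all 22 genes had the smaller mean distance, 18 were higher than in vehicle by limma and none lower, with 4 higher when the pan-leukocyte markers entered the model. Vehicle libraries held 2.29 to 4.41 FPKM of Sqle and 9.38 to 9.86 of Fdps, each below every treated library. Mvk, the mevalonate kinase, was the near member, at 12.5 to 13.8 FPKM against 17.1 in culture and 4.47 to 6.22 in vehicle. The sterol element TCACNCCAC was in the window of 1 of 15 genes with one (Hmgcs1).

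Fatty acid desaturation joined the sterol genes, while oxidation did not. The desaturases Scd2 (78.4, 71.8, 85.9 and 108 FPKM against 1382) and Scd1 (39.02, 40.8, 48.1 and 60.6 against 242) and the acyl-CoA ligase Acsl3 (6.18 to 6.59 against 64.03) were the 3 far members of 15, all below culture. Me1, which supplies NADPH, and the elongase Elovl1 were near. In the list of fatty acid uptake and oxidation 6 of 17 genes were near culture, none was far below and 11 lay above culture in all 4 treated libraries, with a median difference of 0.79.

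**Figure D3:**
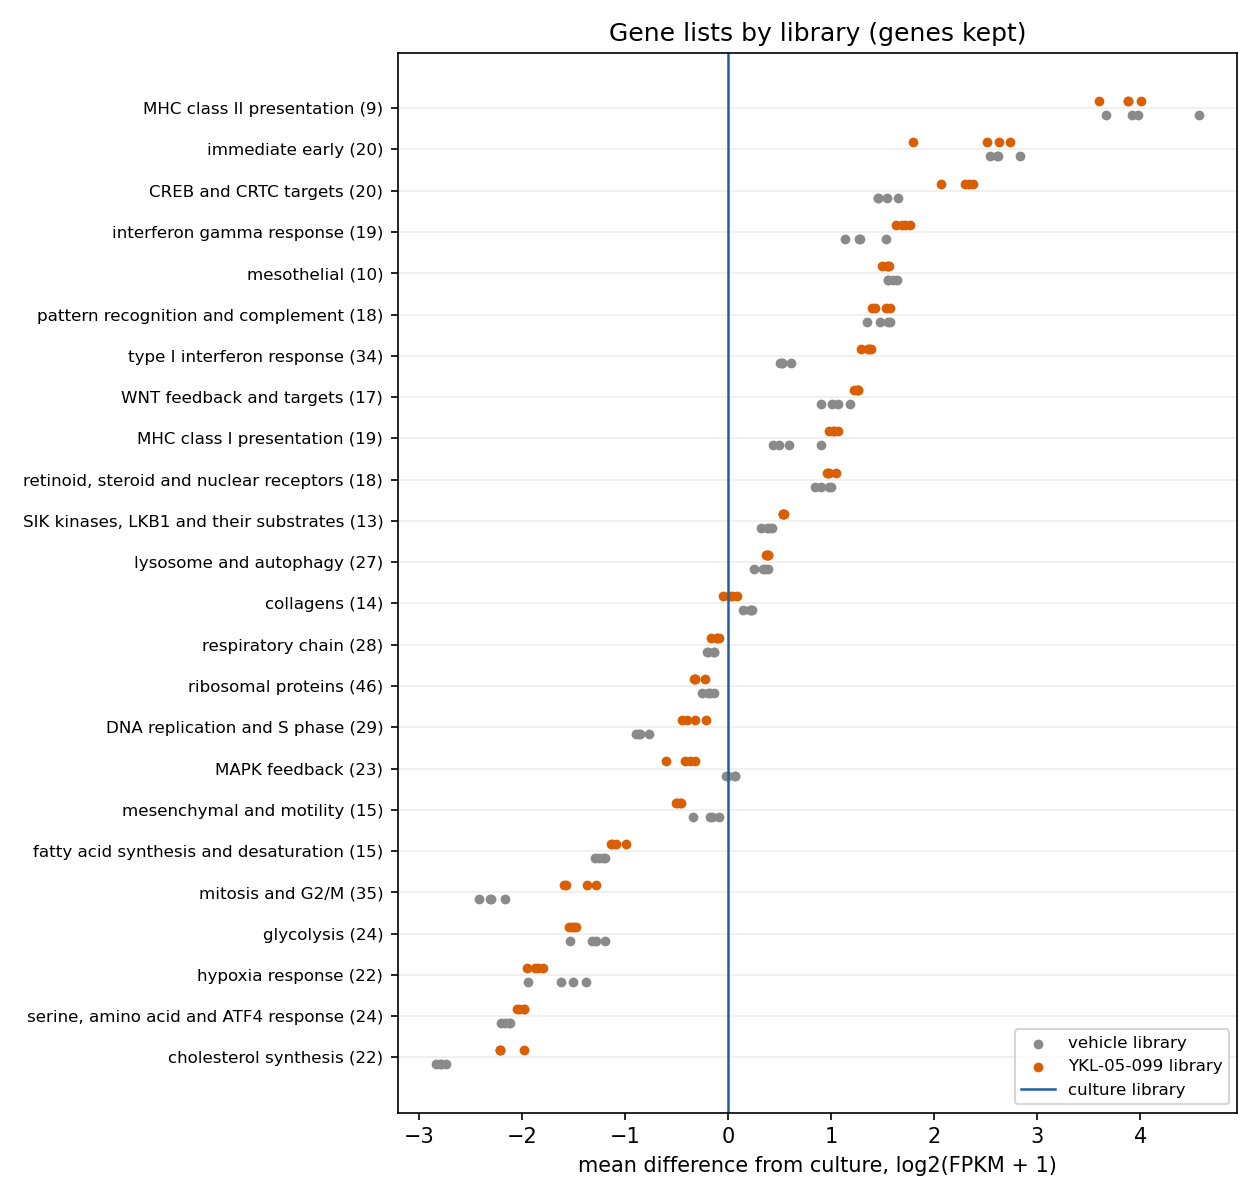
Mean difference from culture of each gene list, in log2(FPKM + 1), in each of the 4 YKL-05-099 (orange) and 4 vehicle (grey) libraries, with the line at 0 standing for the culture library. Lists are ordered by the treated mean; mitosis and cholesterol synthesis lie below 0 in all 8 libraries, with treated libraries nearer to 0 than vehicle ones.

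Hypoxia and glycolysis genes were below culture. Of 22 kept hypoxia response genes 11 were far below and none far above, with a median difference of -1.81. Ero1l, an oxidase of the endoplasmic reticulum, stood at 6.05, 6.26, 6.102 and 6.22 FPKM against 240.2. P4ha2, a collagen prolyl hydroxylase, was at 3.77 to 5.46 against 109, Car12, a carbonic anhydrase, at 1.07 to 2.54 against 34.4, and the angiogenic factor Vegfa at 77.97, 89.2, 99.3 and 88.8 against 486. Every treated library lay below culture for these 4 genes. Kdm3a, a histone demethylase gene, and Mxi1, a MYC antagonist, were near. Of 24 glycolysis genes 8 were far below and 1 far above culture. Pgk1, a kinase of the payoff phase, was at 28.6, 27.7, 29.1 and 31.9 FPKM against 301, Aldoc, an aldolase, at 5.45 to 8.51 against 119.9, and Pdk1, which closes the entry of pyruvate to mitochondria, at 8.898 to 10.7 against 112. The lactate dehydrogenase subunits went opposite ways: Ldha was at 234 to 262 FPKM against 1037, and Ldhb, named after its value was seen, at 664 to 679 against 159. Hk1, Pfkm and Slc2a3 were near. Treated and vehicle libraries overlapped in their distance for both lists (1.97 to 2.11 and 1.63 to 2.02 for hypoxia).

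Genes of serine, amino acid and ATF4 metabolism were far below culture in 10 of 24 cases, with none far above and a median difference of -1.89. Pycr1, which makes proline, stood at 1.45 to 1.81 FPKM against 43.8, the mitochondrial folate enzyme Mthfd2 at 3.73 to 4.75 against 71.6, and Chac1, which degrades glutathione, at 1.86 to 3.38 against 50.2. Slc7a11, the cystine importer, was at 0, 0.0212, 0.00472 and 0.0270 FPKM in treated libraries and 14.1 in culture. It was kept through the culture library alone, which by construction places it below culture. Aldh1l2, a mitochondrial folate enzyme outside the list, was at 0.370 to 0.524 against 39.6 FPKM. Not every member did so: Ddit3 (CHOP), Slc3a2 and Slc38a2 were near culture. For Ddit3 and Slc3a2 the vehicle libraries stood lower than every treated one (18.2 to 29.3 FPKM against 48.9 to 57.5 for Ddit3, limma adjusted p = 8.06e-05, or 0.0571 with the pan-leukocyte markers in the model). The unfolded protein response list, to which the heat shock protein Hspa5 (BiP) belongs, was near in 12 of 21 cases, close to the share over all genes, and had no far member, with Hspa5 at 784, 1205, 1042 and 1177 FPKM against 871.

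Cell cycle genes split by phase. All 35 mitosis and G2/M genes were below culture in all 4 treated libraries, none was near, and the median difference was -1.39. The far members were Ccnb1, or cyclin B1, at 10.6, 8.29, 8.59 and 11.3 FPKM against 46.6, and Cdc25c, a phosphatase that triggers mitosis, at 2.48, 2.19, 2.204 and 2.57 against 13.98. DNA replication and S phase genes were near culture in 20 of 29 cases with none far, and their median difference was -0.27. Pcna, the sliding clamp, was at 111, 97.7, 97.8 and 108 FPKM against 103, and the helicase subunit Mcm6 at 74.5 to 83.7 against 68.8. Culture thus lay inside the treated range for Pcna and below it for Mcm6. These 2 genes do not stand for the list: of the 29, 17 were below culture in all 4 treated libraries and 3 above it. In vehicle libraries both lists were farther from culture: the mitosis list lay 2.17 to 2.42 away against 1.28 to 1.59 in treated libraries, the S phase list 0.771 to 0.897 against 0.34 to 0.468. By limma 35 of 35 mitosis and 28 of 29 S phase genes were higher in treated than in vehicle cells. With the pan-leukocyte markers in the model, 16 mitosis and 3 S phase genes were called higher and none lower. Outside these lists, Ccnd2 (cyclin D2) was far below culture at 2.404, 1.83, 1.05 and 1.64 FPKM against 90.8. Among 19 p53 targets and cell cycle inhibitors 8 were near, Cdkn1b and Cdkn2c among them, while Btg2 was far above and the apoptosis gene Perp far below.

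Growth signaling was mixed. Of 23 MAPK feedback genes 3 were far below culture, 2 far above and 7 near. Dusp4, a MAP kinase phosphatase, stood at 1.92, 1.88, 1.23 and 0.866 FPKM against 59.3 in culture and 6.06 to 10.2 in vehicle libraries, and Etv4, an ETS factor downstream of ERK, at 1.73, 1.19, 1.73 and 2.09 against 65.5 and 3.71 to 4.65. Vehicle libraries were between culture and treated libraries for both (limma adjusted p = 5.32e-05 and 0.000242), and Etv4 was not called with the pan-leukocyte markers in the model (limma adjusted p = 0.0631). Fgfr2, a fibroblast growth factor receptor, was far above culture at 21.1 to 26.3 against 1.54 FPKM. Dusp6 was near in the mean (94.3, 91.9, 86.9 and 44.4 FPKM against 102), with library 4 below the other 3. Of 18 growth factor genes Igf1 was far above (13.4 to 17.8 against 2.13 FPKM), Vegfa and Pdgfb far below, and 6 near. Pdgfb, a mitogen for stromal cells, was at 5.304 to 6.75 FPKM against 39.8 in culture and 17.4 to 22.1 in vehicle (limma adjusted p = 4.33e-06).

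Matrix and motility genes held some of the largest differences below culture. Spp1, or osteopontin, stood furthest below culture among the protein-coding genes: 4.42, 4.95, 5.56 and 6.06 FPKM in treated libraries, 4.39 to 6.05 in vehicle and 651 in culture. The protease gene Plat, or tissue plasminogen activator, was far above culture at 77.1 to 93.5 against 6.74 FPKM, and the urokinase receptor Plaur far below at 2.59 to 4.59 against 30.2. The crosslinking enzyme Lox was at 15.4 to 18.4 against 170.1 FPKM. Collagens divided: Col6a1 (136 to 155 against 30.6) and Col6a2 (95.7 to 114 against 7.94) were far above, Col1a1 (3.51 to 4.84 against 32.2) and Col5a1 (1.22 to 1.79 against 25.3) far below, and 4 of 14 near. Eln (elastin) and Has1, a hyaluronan synthase, were far above culture, Has1 at 18.9, 16.9, 24.04 and 17.5 FPKM with 0 listed in culture and 1.03 to 4.06 in vehicle. Tnc (tenascin C) was far below. Of 15 mesenchymal and motility genes 4 were far below and 1 far above: the calcium-binding protein gene S100a4 was at 10.6 to 14.5 against 228 FPKM, the actin bundler Fscn1 at 0.895 to 1.18 against 16.4, and the myosin light chain Myl9 above culture at 49.3 to 60.6 against 0.415. Myl9 and Has1 were kept through the treated libraries alone, which by construction places them above culture. The transcription factors Snai1 and Snai2 were the other far members below culture. Vim (vimentin), Zeb2 and S100a6 were near. Ankrd1, a YAP target of muscle and stressed cells, was far below at 2.69, 1.58, 2.04 and 1.37 FPKM against 116. It was the only far member of 22 YAP and TEAD targets, of which 10 were near (54.3% over all genes), Axl and Wwtr1 among them. The integrin subunit Itga5 was far below (12.5 to 14.9 against 82.6 FPKM) and Itga2b far above (28.3, 29.4, 29.3 and 28.5 against 3.02, with vehicle at 7.01 to 10.8). Itga2b also marks platelets. The 7 platelet and megakaryocyte markers, Itga2b included, summed to 29.6, 34.3, 33.8 and 29.1 FPKM in treated libraries 1 to 4, 3.02 in culture and 15.1 to 24.4 in vehicle libraries. Itga2b alone made up most of the sum in the treated libraries and in culture, so the sum says little about the other markers. Of 2 of these markers tested against vehicle, 1 was higher and 1 lower in treated cells. Both kept members lay above culture in all 4 treated libraries, Gp9 was at 0 in all 4, and the part of platelets was not tested.

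Genes of the basic machinery of the cell were mostly near culture. Ribosomal protein genes were near in 39 of 46 cases with none far, and 40 of 46 lay slightly below culture in all 4 libraries (median difference -0.30). Rplp1 stood at 2655, 2624, 2697 and 2625 FPKM against 2583 and Rpl7 at 1997 to 2099 against 2321. Respiratory chain genes were near in 24 of 28 cases with none far, Cox6c and Atp5a1 among them. Lysosome and autophagy genes were near in 18 of 27 cases, Ctsd and Psap among them, and the rest lay above culture. MYC target and ribosome biogenesis genes were near in 22 of 30 cases, with nucleolin (Ncl) at 129 to 135 against 165 FPKM and Ldha the only far member. Among the near genes of highest level were also Rps27 (1601 to 1797 FPKM against 1418), the elongation factor Eef1a1 (2956, 3017, 3091 and 3165 FPKM against 3384), the matrix glycoprotein Sparc (1256, 1346, 1411 and 1357 against 1829) and transferrin, Trf (1533, 1744, 1742 and 1723 against 1459). All of these shares stand against 54.3% near over all genes. Actin cytoskeleton genes, near in 12 of 20 cases with none far, lay close to that overall share.

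Several of the largest differences fell outside these lists. Igfbp2 and Igfbp5, binding proteins of insulin-like growth factors, stood at 289, 253, 246 and 249.9 FPKM against 2.19 and 86.6 to 125 against 0.833. The cystatin gene Cst12 was at 179.6 to 205 FPKM against 1.55, Fxyd1, a regulator of the sodium pump, at 218 to 236 against 2.49, and Islr, a leucine-rich secreted protein gene, at 129 to 143 against 1.62. Vehicle libraries overlapped the treated range for Igfbp2, Igfbp5, Cst12 and Islr, and lay above it for Fxyd1. Below culture, Emb (embigin), a partner of monocarboxylate transporters, was at 3.21, 2.67, 3.56 and 4.99 FPKM against 174, the metalloreductase gene Steap1 at 6.52 to 8.73 against 184, the lysophospholipid acyltransferase Lpcat2 at 0.597 to 1.16 against 50.5 and the glutathione transferase Gsto1 at 2.07 to 2.44 against 85.8. Fbxw7, which encodes a subunit of a ubiquitin ligase, met the rule with values that split the replicates: 4247, 7.01, 6702 and 3951 FPKM in treated libraries 1 to 4, 5.54 in culture, and 5.78 to 6.19 in 3 vehicle libraries with 5017 in the other. Its annotation holds a transcript of 56 bases, for which FPKM is unstable, so no level is assigned to this gene.

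Some genes lay at the culture level in treated but not in vehicle cells, and others the reverse. Of the kept genes, 201 differed between treated and vehicle cells by at least 1 log2 unit with a limma call, of which 121 were also called with the pan-leukocyte markers in the model. The treated mean was near culture and the vehicle mean at least 1 log2 unit away in 17 genes higher and 10 genes lower in treated cells (12 and 5 of them called with those markers in the model). The vehicle mean was near culture and the treated mean at least 1 unit away in 25 genes higher and 12 lower (18 and 6). These positions rest on 1 culture library.

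Genes at the culture level after treatment only included ligands and a lipid kinase. Pi4k2b, a phosphatidylinositol kinase gene, stood at 29.6, 28.3, 30.2 and 23.6 FPKM in treated libraries, 32.03 in culture and 8.99 to 9.77 in vehicle libraries (limma adjusted p = 2.11e-06). Ereg, a ligand of the EGF receptor, was at 2.49 to 3.43, 3.72 and 0.352 to 0.474 FPKM in the same order, Fgf5, a fibroblast growth factor, at 4.12 to 6.11, 4.36 and 0.655 to 1.66, and the cohesin acetyltransferase gene Esco2 at 6.75 to 10.9, 7.17 and 1.91 to 3.04. These 4 genes were chosen by their limma call and a difference of at least 1 log2 unit from vehicle. That vehicle was low and apart from the treated range follows from this choice. On the other side vehicle was high: the matrix Gla protein gene Mgp was at 5.45 to 9.57, 7.04 and 17.8 to 37.6 FPKM, the protease inhibitor Slpi at 9.59 to 14.9, 10.4 and 29.9 to 46.8, and the syndecan Sdc4 at 248.7 to 358, 245 and 589.8 to 741. Ctgf, a matricellular YAP target, belongs here by its mean, but its treated values of 342, 354, 324 and 114 FPKM lay on both sides of the culture value of 245. With the pan-leukocyte markers in the model Mgp, Sdc4 and Ctgf were not called (limma adjusted p = 0.0974, 0.069 and 0.446).

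Genes at the culture level after vehicle only included interferon genes and a phosphodiesterase. They too were chosen by their limma call and size of difference, so treated values apart from vehicle follow from the choice. Pde4d, which degrades cAMP, stood at 25.7, 26.5, 25.5 and 26.8 FPKM in treated libraries, 6.596 in culture and 5.16 to 7.67 in vehicle libraries (log2 fold change against vehicle 1.92, SE 0.09, limma adjusted p = 2.08e-06). Apol9a, an interferon-inducible apolipoprotein gene, was at 10.5 to 12.1, 1.77 and 1.501 to 1.73 FPKM, and its near-identical copy Apol9b, with which it can share reads, at 8.87 to 10.2, 2.24 and 1.73 to 2.17. Flcn, or folliculin, a regulator of nutrient signaling, was at 23.8 to 38.2, 10.7 and 10.03 to 11.1, and the clock repressor Nr1d1 at 46.4 to 57.04, 12.97 and 11.1 to 27.4. Treated libraries were the highest for all of these. They were the lowest for Efnb2, an ephrin ligand (18.2 to 19.9, 57.5 and 47.9 to 54.7 FPKM), for the Notch ligand Jag1 (4.17 to 4.39, 10.7 and 12.8 to 16.6), for the endothelin Edn1 (12.003 to 23.9, 49.9 and 38.9 to 57.1) and for Tnfrsf12a, the receptor of the cytokine TWEAK (40.3 to 68.5, 121 and 155 to 172). With the pan-leukocyte markers in the model Nr1d1 and Edn1 were not called (limma adjusted p = 0.265 and 0.174).

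**Figure D4:**
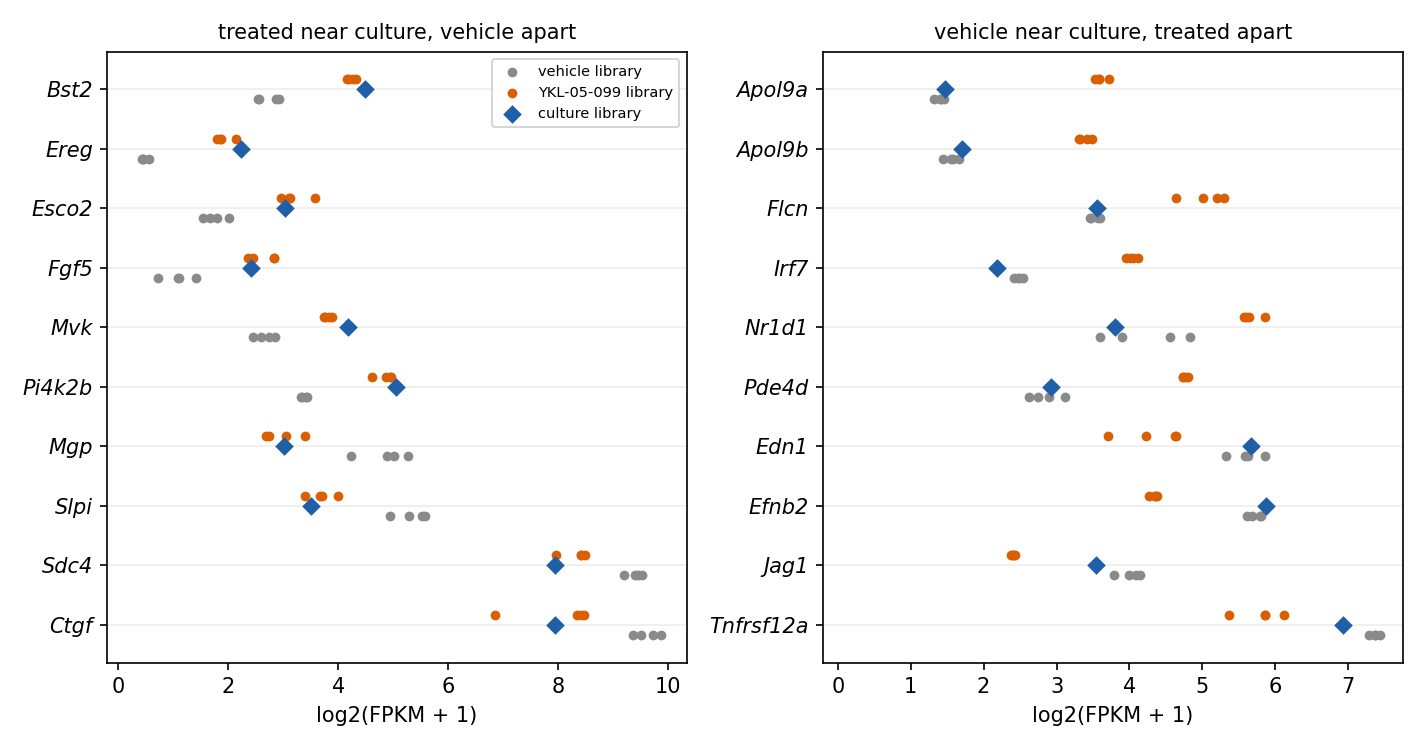
FPKM on a log2(FPKM + 1) axis in the 4 YKL-05-099 (orange), 4 vehicle (grey) and 1 culture (blue diamond) library for genes that lay near culture after treatment but not after vehicle (left) and near culture after vehicle but not after treatment (right). On the left the orange points lie closer to the diamond than the grey points do, with 1 low treated library for Ctgf; on the right the grey points lie closer.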

How the data were processed

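RNA of 9 libraries (4 YKL-05-099, 4 vehicle, 1 culture) was sequenced by the authors. The deposited values are FPKM per gene, 1 column a library, with no reads and no counts. The submitters' processing notes name bcl2fastq 2.19 and GRCm38, and neither aligner nor quantifier is given in the sources used here. Of 48302 rows, 65 repeats of a gene and 7 genes with a failed value were left out, Fn1 among them.

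Values were analysed as log2(FPKM + 1). Genes reaching 1 FPKM in the culture library or in at least 3 treated libraries were kept, and called near or far by the sizes given with the results, without a test, since culture is 1 library. Treated and vehicle libraries were compared with limma 3.58.1 (R 4.3.3, mean trend, Benjamini-Hochberg adjustment) over 11788 genes with 1 FPKM in at least 4 of 8 libraries. Python 3.11.15 did the rest. Both procedures were tested on simulated data. Depth was estimated as 24000000 to 35000000 fragments a library and limits the precision of values near 0, where no interval can be given without counts.

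Genes, gene lists and rules were chosen with earlier results of these data known. The text names the 12 far genes of largest difference in each direction with at least 5 FPKM in the higher group, up to 4 far and 3 near members of each list, up to 8 genes of each position relative to vehicle, Sik1 to Sik3, and the 6 near genes of highest level. Pck2, Bdnf, Fosl1, Ldhb, Ciita and Kdr were added after their values were seen, and some genes that the rule names are not reported here. Promoter windows are from RefSeq (9068 of 12176 genes kept had one). Genes with near-identical copies, such as the hemoglobins, H2, Gbp, Gstm and Apol9 genes, are uncertain where the authors' quantification could split reads.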

Additional observations from a re-analysis of the deposited data

Results flagged for a closer look

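For each gene named, the 4 values of a group were searched for a library whose gap to the other 3 was large against the whole range (Dixon's criterion). This set apart 1 library in 31 of 373 groups of 4, and chance sets one apart in about 1 of 20 groups.

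Treated library 1 stood alone as the highest for Cox6c (697 FPKM against 686 to 687). Treated library 1 stood alone as the lowest for Ctsd (201 FPKM against 209 to 210.04), Ptgds (9.51 FPKM against 12.998 to 13.8) and Trf (1533 FPKM against 1723 to 1744). Treated library 2 stood alone as the lowest for Fbxw7 (7.01 FPKM against 3951 to 6702). Treated library 3 stood alone as the highest for Krt7 (27.1 FPKM against 19.4 to 19.97). Treated library 3 stood alone as the lowest for Fdps (14.7 FPKM against 16.5 to 16.9). Treated library 4 stood alone as the lowest for Btg2 (162 FPKM against 317 to 335), Ctgf (114 FPKM against 324 to 354), Dusp6 (44.4 FPKM against 86.9 to 94.3), Egr1 (769.9 FPKM against 1182 to 1227), Nfkbiz (35.3 FPKM against 62.9 to 69.3), Nr4a1 (146 FPKM against 252 to 278) and Sdc4 (248.7 FPKM against 339 to 358).

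Vehicle library 1 stood alone as the highest for Mcm6 (66.8 FPKM against 62.5 to 62.8). Vehicle library 2 stood alone as the highest for Emb (6.897 FPKM against 5.42 to 5.47) and Etv4 (4.65 FPKM against 3.71 to 3.85). Vehicle library 3 stood alone as the lowest for Nr2f2 (9.87 FPKM against 12.3 to 12.7). Vehicle library 4 stood alone as the highest for Btg2 (484 FPKM against 450.1 to 454), Calr (430.4 FPKM against 262 to 269), Cdkn2c (60.4 FPKM against 51.7 to 52.4), Col5a1 (1.98 FPKM against 1.54 to 1.61), Fbxw7 (5017 FPKM against 5.78 to 6.19), Il33 (12.3 FPKM against 5.097 to 5.65), Itga2b (10.8 FPKM against 7.01 to 7.51), Pdia3 (294 FPKM against 213 to 224), Sqle (4.41 FPKM against 2.29 to 2.47), Stk11 (49.4 FPKM against 41.7 to 42.9) and Wnt4 (93.1 FPKM against 51.8 to 54.8). Vehicle library 4 stood alone as the lowest for Lox (12.2 FPKM against 27.1 to 29.6) and Msln (29.8 FPKM against 37.96 to 39.3).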

How the results depend on the processing

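Counts of genes far above and far below culture were 738 and 434 with a pseudocount of 0.1, 1384 and 1035 with far set at 1 log2 unit, and 142 and 77 at 3. Genes near culture numbered 17359 without the filter on low values, 3713 with near set under 0.25 log2 unit, and 1538 when near meant a culture value inside the treated range. Of the list members 380 were far at 1 log2 unit. The mean distance from culture of treated and vehicle libraries was 0.854 and 0.847 with a pseudocount of 0.1, 0.741 and 0.736 with 0.5, 0.658 and 0.655 after quantile scaling, 0.748 and 0.745 as TPM, and 0.454 and 0.442 as a median. When genes kept through vehicle libraries were added, it was 0.668 and 0.677, which reverses the order of the main result (0.671 and 0.667). Leaving out 1 library gave 393 to 406 genes far above, 222 to 227 far below and 6561 to 6633 near culture, 157 to 163 list members far, and distances of 0.668 to 0.676 (treated) and 0.665 to 0.670 (vehicle). Of 118 named far genes Ldha, Apol9a and Hspa1b were not far after quantile scaling, Hspa1b not after median-of-ratios scaling or without treated library 4, and Pla2g4a not without treated library 3. Leaving out genes with a transcript under 200 bases was chosen after seeing the data.

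Against vehicle, limma called 363 genes higher and 228 lower with the pan-leukocyte covariate, which ended the call of 76 of the 186 named genes tested and turned the log2 fold change of Eln to 0.021. Median-of-ratios scaling gave 2497 and 2466, since treated values exceeded vehicle by a median of 0.05 log2 unit as deposited. Leaving out 1 library gave 2773 to 3473 higher and 1436 to 2060 lower. With the replicate block the counts were 3148 and 1682. The labels share replicate numbers, but these did not pair the samples: deviations of same-numbered libraries correlated at -0.02, 0.13, -0.05 and 0.17, and 1 of 4 correlated best with its own number. Depth limits values near 0 FPKM, and the culture state rests on 1 library.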

Other observations

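Further gene lists held members far from culture. Of 26 kept NRF2 and antioxidant genes 3 were far above and 2 far below culture. Gstm1, a glutathione transferase, stood at 1379.9, 1393, 1269 and 1553 FPKM in treated libraries against 155 in culture, and its relative Gstm2, with which it can share reads, at 821, 833, 729 and 811 against 120.3. Vehicle libraries held 1494 to 2376 FPKM of Gstm1, a range that overlaps the treated one (limma adjusted p = 0.0103, or 0.599 with the pan-leukocyte markers in the model). The glutathione peroxidase Gpx4, which removes lipid peroxides, was near at 381 to 419 FPKM against 445. In the circadian clock list 6 of 15 genes were near and 1, Per1, was far above culture at 101, 109, 107 and 84.99 FPKM against 11.8. Per1 is a CREB target as well as a clock repressor, and its vehicle range of 70.7 to 107 FPKM overlapped the treated one.

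Lipid mediator genes lay on both sides. Ptgds, a prostaglandin D synthase, was at 9.51 to 13.8 FPKM against 0.0399 in culture. Ptgs2, the inducible cyclooxygenase COX-2, was at 4.86 to 9.43 FPKM against 42.1, and the phospholipase Pla2g4a, which releases arachidonic acid, at 13.8, 12.3, 11.2 and 12.9 against 54.2. Without treated library 3 the Pla2g4a difference fell short of the size that counts as far. Of 16 immunosuppressive ligands and enzymes 2 were far below culture, Ptgs2 and the galectin gene Lgals3 (14.1 to 21.4 against 108 FPKM). Of 16 heat shock genes 5 were near, and Hspa1b, an inducible HSP70 gene with a near-identical copy, was far above at 3.79 to 4.27 FPKM against 0.234, but no longer far without treated library 4 or after median-of-ratios scaling. Notch and Hedgehog genes were near in 7 of 11 cases with none far.

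Single markers of other cell types also stood far from culture. The hemoglobin gene Hbb-bs was at 5.31, 35.6, 55.5 and 0.514 FPKM in treated libraries 1 to 4, at 148 to 954 in vehicle libraries and listed at 0 in culture. Apoe, which macrophages express, was at 10.5, 20.3, 27.5 and 9.44 FPKM against 1.87, with 93.7 to 247 in vehicle libraries. Treated libraries 2 and 3 were the highest of the 4 for both genes. The endothelial receptor gene Kdr, named after its value was seen, was at 3.43 to 5.204 FPKM against 0.0711. The 10 endothelial markers summed to 103.7 to 106.3 FPKM in treated libraries, 49.0 in culture and 108.4 to 113.1 in vehicle libraries. Of them 3 were kept, all above culture in all 4 treated libraries with a median difference of 1.03, and Cdh5 and Cldn5 were at 0 in every treated library. The part of endothelial cells was not tested.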
